A study of Homo sapiens with 2 samples.

Results

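The genes described here are the 5 subunits of the transcription factor NF-kB and 5 genes whose products hold it back or modulate it: the canonical subunits NFKB1, RELA and REL, the noncanonical subunits NFKB2 and RELB, the IkB inhibitors NFKBIA, NFKBIB and NFKBIE, the nuclear IkB family protein BCL3, and the ubiquitin-editing enzyme TNFAIP3. They were taken by symbol from the deposited tables, where each has 1 row, and are 10 of 56638 genes. RNA was sequenced from TFK1 cells, an established human cholangiocarcinoma line, which carried either a lentiviral shRNA against MBD2 (the library labelled T-shMBD2, called shMBD2 below) or a negative control shRNA (T-shNC, called shNC below). MBD2 is a reader of methylated CpG dinucleotides, and the sequencing was done to find the factors that it regulates in cholangiocarcinoma cells. Both groups had been infected with lentivirus and selected with a drug, the labels give no other treatment, and each group is 1 library of 1 cell line. Which of the study's shRNAs against MBD2 the knockdown library carried is not given in the labels.

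With 1 library per group there is no replicate error and no test. Every difference below compares 2 libraries, and the 95% intervals (exact Clopper-Pearson, from how a gene's reads split between the libraries) cover counting error only, not the variation between cultures. The counts summed to 14728814 in shMBD2 and 14467406 in shNC. MBD2 itself had 365 counts in shMBD2 and 1013 in shNC, a log2FC of -1.48 (interval -1.66 to -1.31). log2FC is the log2 ratio of shMBD2 over shNC after scaling, so that a positive value is higher in shMBD2, and a log2FC of 1 is a 2-fold difference. Of 7 biliary epithelial markers, KRT7 and KRT8 had at least 11632 counts in each library, whereas KRT19 had 119 in shMBD2 and 70 in shNC. In the same order KRT18 had 6277 and 7981 counts, CDH1 2342 and 1762, SOX9 264 and 435, and EPCAM 111 and 162. Of 10 leukocyte markers, 4 had no counts in either library, PTPRC had 0 in shMBD2 and 1 in shNC, and CD14 had the most, with 152 and 126. The summed level of these 10 markers was 15.8 TPM (transcripts per fixed total, a level per gene length) in shMBD2 and 15.3 TPM in shNC. COL1A1 had 308 counts in shMBD2 and 124 in shNC, while the other 5 fibroblast markers had at most 6 in either library. Of 4 endothelial markers, none had more than 1 count.

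NF-kB is a family of dimers that IkB proteins hold in the cytoplasm until a signal such as TNF or interleukin 1 leads the IKK kinase to mark IkB for degradation. In the canonical pathway the freed dimer is mostly RELA with the product of NFKB1, and in the noncanonical pathway the kinase MAP3K14 leads to processing of the NFKB2 precursor, which pairs with RELB. NFKBIA, TNFAIP3, NFKB2 and RELB are examples of textbook targets of NF-kB itself, and are not meant as a full list. The pathway thus feeds back on its own inhibitors and subunits. The examples named are also the members with the largest log2FC below, and those values were known. Whether targets of NF-kB differed more than the other members was not tested. In epithelium the pathway is known for its role in inflammation and cell survival.

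The promoters are shown because several of these genes are known to be driven by NF-kB and because MBD2 reads CpG sites. RefSeq promoter windows (GRCh38.p14, 250 bases before to 50 bases after a start) were found for 8 of the 10 genes, with 13 windows in all. RELB and NFKBIE were not among them. The NF-kB consensus site (the kB site, searched on both strands, where matches on opposite strands may overlap and are then shown as 1 run) was in a window of 7 genes and in 8 of the 13 windows, and in 11.3% of all 35116 windows. For 6 of the 7 genes a match lay before the start. The runs below give the 250 bases before a start, 5′ to 3′ on the gene's strand, with matches to the consensus in capitals. They are TNFAIP3 and NFKBIA, the feedback inhibitors with the largest differences, NFKB2 and NFKB1, the precursor subunits, and REL and RELA, which differed little between the libraries.
TNFAIP3, chr6:137867009-137867258, plus strand: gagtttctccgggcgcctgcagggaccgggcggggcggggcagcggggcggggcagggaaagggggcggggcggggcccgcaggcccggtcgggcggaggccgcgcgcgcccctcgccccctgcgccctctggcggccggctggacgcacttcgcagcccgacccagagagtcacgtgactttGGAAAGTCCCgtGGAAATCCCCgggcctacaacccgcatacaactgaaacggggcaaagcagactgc
NFKBIA, chr14:35404750-35404999, minus strand: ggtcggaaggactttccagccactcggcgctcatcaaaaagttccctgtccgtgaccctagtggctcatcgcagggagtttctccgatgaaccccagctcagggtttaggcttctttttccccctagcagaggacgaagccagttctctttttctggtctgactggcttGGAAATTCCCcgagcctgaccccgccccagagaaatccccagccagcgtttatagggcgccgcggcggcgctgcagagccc
NFKB2, the second of 3 starts, chr10:102394328-102394577, plus strand: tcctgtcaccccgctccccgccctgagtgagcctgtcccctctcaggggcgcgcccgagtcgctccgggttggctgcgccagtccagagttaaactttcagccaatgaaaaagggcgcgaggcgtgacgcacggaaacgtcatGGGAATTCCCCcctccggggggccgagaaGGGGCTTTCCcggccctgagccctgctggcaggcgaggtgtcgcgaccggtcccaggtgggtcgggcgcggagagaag
NFKB1, the first of 2 starts, chr4:102501109-102501358, plus strand: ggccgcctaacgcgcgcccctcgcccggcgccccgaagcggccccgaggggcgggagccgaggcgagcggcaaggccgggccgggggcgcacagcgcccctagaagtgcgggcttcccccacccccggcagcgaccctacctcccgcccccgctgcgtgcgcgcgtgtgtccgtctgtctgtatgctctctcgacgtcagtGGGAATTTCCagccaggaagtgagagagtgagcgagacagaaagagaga
REL, chr2:60881324-60881573, plus strand: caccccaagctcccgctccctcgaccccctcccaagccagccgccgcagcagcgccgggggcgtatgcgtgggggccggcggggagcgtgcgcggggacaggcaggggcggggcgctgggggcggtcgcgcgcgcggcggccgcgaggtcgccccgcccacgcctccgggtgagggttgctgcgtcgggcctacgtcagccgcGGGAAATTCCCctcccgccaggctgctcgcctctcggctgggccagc
RELA, the second of 2 starts, chr11:65662917-65663166, minus strand: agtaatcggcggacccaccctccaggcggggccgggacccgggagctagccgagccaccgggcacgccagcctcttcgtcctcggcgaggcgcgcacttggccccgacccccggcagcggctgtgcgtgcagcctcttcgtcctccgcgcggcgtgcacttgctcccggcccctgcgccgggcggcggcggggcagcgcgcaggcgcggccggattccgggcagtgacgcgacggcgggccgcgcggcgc

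In TNFAIP3 the matches GGAAAGTCCC and GGAAATCCCC lay 67 to 58 and 55 to 46 bases before the start. In NFKBIA a match, GGAAATTCCC, lay 81 to 72 bases before the start. The second start of NFKB2 had GGGAATTCCCC 107 to 97 bases before it and GGGGCTTTCC 78 to 69 bases before it. The third start of NFKB2, whose bases are not shown, also had matches, 176 to 167 and 21 to 12 bases before it. NFKB1 held GGGAATTTCC 49 to 40 bases before its first start, and REL held GGGAAATTCCC 47 to 37 bases before its start. These letters were therefore present in genes that differed much between the libraries and in REL, which differed little. RELA had no match in either of its windows, and the only match of BCL3 lay 3 to 12 bases from its start, counting the start as 1. NFKBIB held GGGAATTTCCC 28 to 18 bases before its second start and GGGGGGCCCC 39 to 48 bases from it, counted in the same way. The number of CG dinucleotides per 300 bases had a median of 14 over all windows. RELA had both the lowest and the highest number of the 13 windows, 7 at its first start and 48 at its second. The others were 41 in REL, 35 in TNFAIP3 and BCL3, 35 and 28 in NFKB1, 20, 28 and 21 in NFKB2, 26 and 22 in NFKBIB, and 22 in NFKBIA. No methylation or binding was measured in these libraries, so the sequences are a description.

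All 10 genes were higher in shMBD2 than in shNC, and they differed widely in how much. TNFAIP3 was 19.2-fold higher (interval 15.4 to 24.4), RELB 5.92-fold (4.68 to 7.65), NFKB2 3.01-fold (2.70 to 3.37), NFKBIA 2.57-fold (2.36 to 2.80) and NFKB1 2.25-fold (2.02 to 2.51). NFKBIE, NFKBIB, REL, RELA and BCL3 lay between 1.66-fold and 1.17-fold. The genes were chosen by symbol with their log2FC in this same comparison already known, so the counts that follow describe them and support nothing. Of the 10, 5 had a log2FC above 1 and 0 below -1, and the intervals of these 5 lay above 1 throughout. Of all 17545 tested genes, which are those that reach 10 counts when the libraries are added, 5.48% had a log2FC above 1 and 5.07% below -1. A count of 100 or more in the higher library was reached by 10917 genes, all 10 members included, and of these 1.62% lay above 1 and 0.998% below -1. An interval above 1 throughout was found for 1.37% of the tested genes and 1.15% of these better counted ones. The median log2FC was 0.95 over the 10 genes and -0.0082 over all tested genes.

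**Figure D1:**
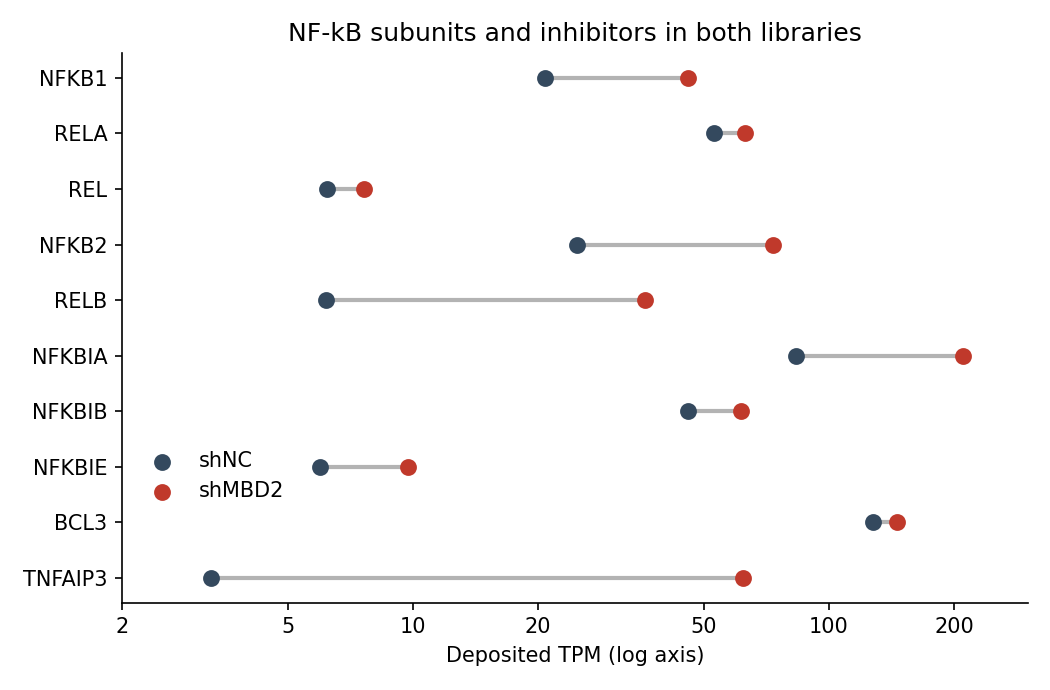
Deposited TPM of each gene (log axis) in the shNC library (dark) and the shMBD2 library (red), with a line joining the values of a gene. All 10 genes are higher in shMBD2, and TNFAIP3 moves from 3.28 to 62.0 TPM while BCL3 moves from 128 to 146 TPM.

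**Figure D2:**
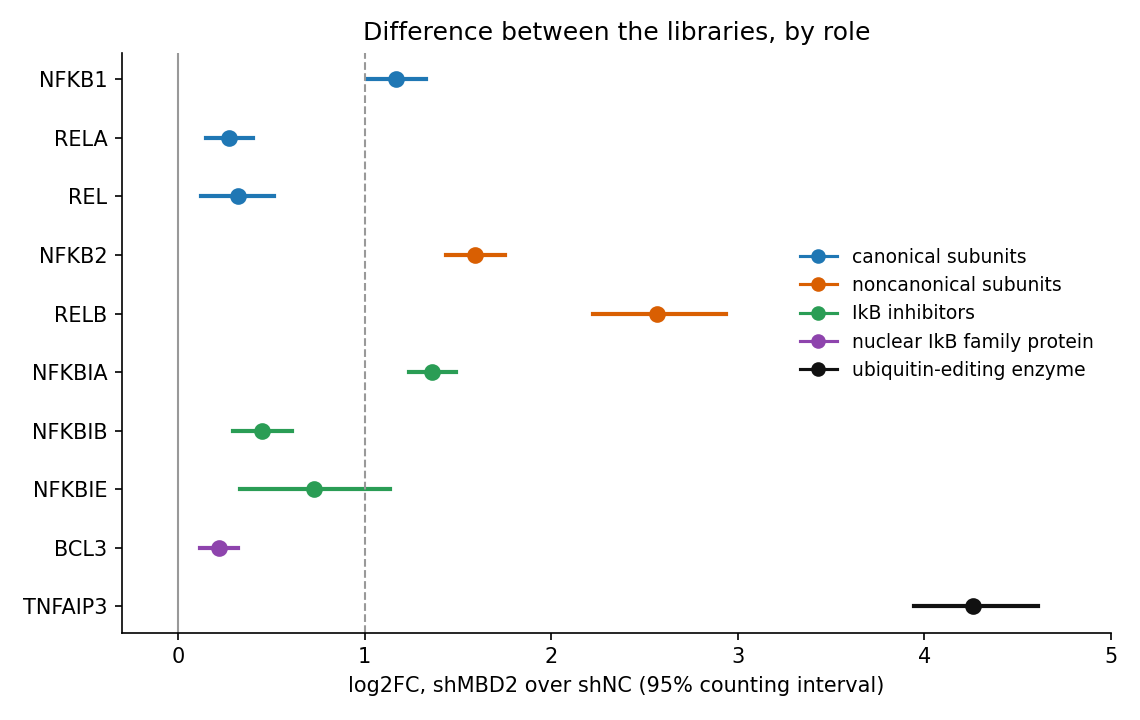
log2FC of each gene (points) with its 95% counting interval (lines), colored by role, with a dashed line at 1. The 5 genes past the dashed line are TNFAIP3, RELB, NFKB2, NFKBIA and NFKB1, and the interval of NFKBIE crosses it.

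The canonical subunits did not differ alike. RELA, the main transactivating subunit of the canonical dimer (chromosome 11), had 1141 counts in shMBD2 and 938 in shNC, or 62.7 and 52.9 TPM, a log2FC of 0.27 (interval 0.15 to 0.40). REL, the c-Rel subunit best known from lymphocytes (chromosome 2), had 490 and 390 counts, or 7.61 and 6.22 TPM, and a log2FC of 0.32 (interval 0.13 to 0.52). Both lay slightly above shNC, and the difference between their log2FC was -0.047 with an interval from -0.28 to 0.19, which includes 0. NFKB1, the precursor of the DNA-binding partner of RELA (chromosome 4), had 1071 and 473 counts, or 45.9 and 20.8 TPM, a log2FC of 1.17 (interval 1.01 to 1.33). Its log2FC exceeded that of RELA by 0.90 (interval 0.69 to 1.10) and that of REL by 0.85 (interval 0.60 to 1.10). RELA had 2.55 times the TPM of NFKB1 in shNC and 1.37 times in shMBD2, so the levels of these partners lay closer together in the knockdown library.

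The noncanonical subunits both lay past the 2-fold line. NFKB2, the precursor that is processed in the noncanonical pathway (chromosome 10), had 1302 counts in shMBD2 and 429 in shNC, or 73.4 and 24.8 TPM, a log2FC of 1.59 (interval 1.43 to 1.75). RELB, its usual partner (chromosome 19), had 473 and 79 counts, or 36.1 and 6.18 TPM, a log2FC of 2.57 (interval 2.23 to 2.94). The wider interval of RELB follows its 79 counts in shNC, the fewest of any of the 10 genes in a library. The log2FC of RELB exceeded that of NFKB2 by 0.98 (interval 0.60 to 1.38), and NFKB2 had 4.02 times the TPM of RELB in shNC and 2.04 times in shMBD2.

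The noncanonical subunits were compared with the canonical ones by the ratio of their count ratios, which does not depend on how the libraries were scaled. The median log2FC was 2.08 for the 2 noncanonical and 0.32 for the 3 canonical subunits. In all 6 pairs the noncanonical subunit had the larger log2FC, with an interval above 0. The smallest difference was that of NFKB2 and NFKB1, 0.42 (interval 0.20 to 0.65), and the largest that of RELB and RELA, 2.30 (interval 1.93 to 2.68). Between these lay NFKB2 against REL at 1.27 and against RELA at 1.32, and RELB against NFKB1 at 1.40 and against REL at 2.25. NFKB1 was thus nearer to NFKB2, the other precursor, than to RELA. The 6 pairs reuse the same 2 noncanonical and 3 canonical subunits, so they are not 6 separate observations. Of all 21 pairs of members compared, 5 had an interval that included 0, so an interval without 0 is common at this depth. The intervals cover counting error only, and whether the order would recur in other cultures was not measured.

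The make-up of the subunit transcripts differed between the libraries. The summed level of the 5 subunits was 226 TPM in shMBD2 and 111 TPM in shNC, 2.04-fold higher. RELA was 47.7% of the sum in shNC and 27.8% in shMBD2, where NFKB2 was the most abundant subunit with 32.5%, against 22.4% in shNC. RELB made up 5.57% in shNC and 16.0% in shMBD2, NFKB1 18.7% and 20.3%, and REL 5.61% and 3.37%. The noncanonical subunits together were 28.0% of the sum in shNC and 48.5% in shMBD2. These are levels of transcripts, and neither protein, processing of the precursors nor nuclear location was measured here.

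**Figure D3:**
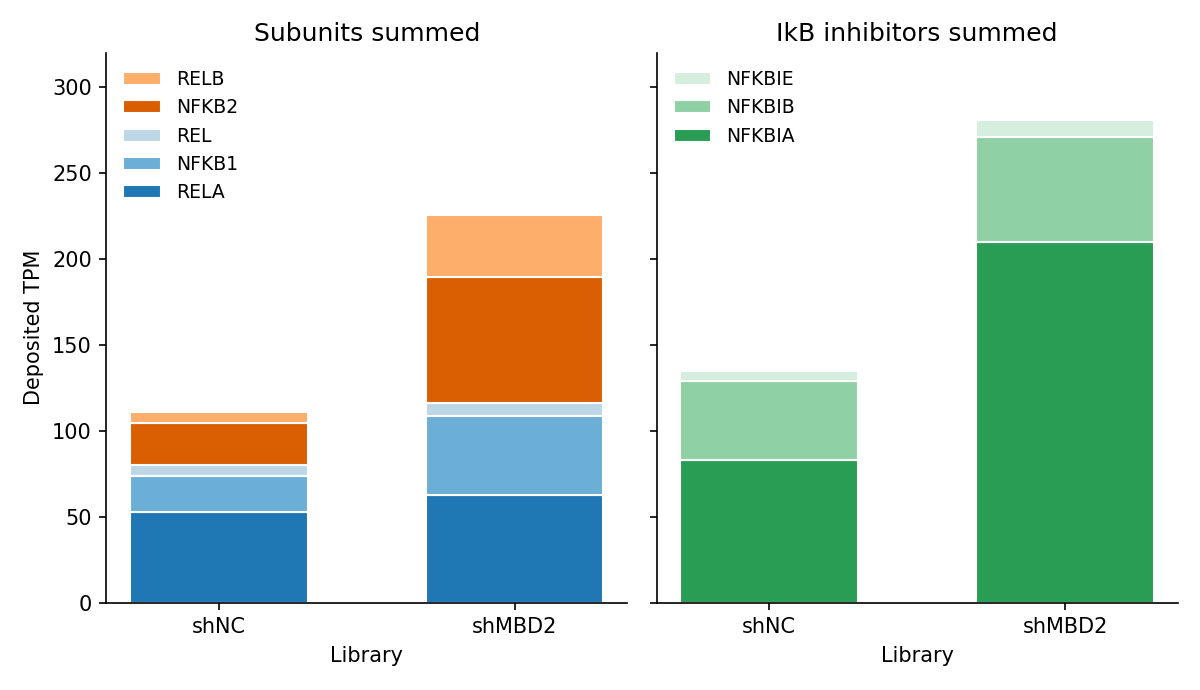
Deposited TPM of the subunits (left) and the IkB inhibitors (right), stacked by gene, in each library, with both panels on the same axis from 0. The subunit sum goes from 111 TPM in shNC to 226 TPM in shMBD2 and the IkB sum from 135 to 281 TPM, and most of the gain lies in NFKB2, RELB and NFKB1 on the left and NFKBIA on the right.

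Of the IkB inhibitors, which keep NF-kB dimers in the cytoplasm, NFKBIA stood furthest from shNC. NFKBIA encodes IkB alpha, the inhibitor that is degraded and resynthesized fastest (chromosome 14), and it had 1870 counts in shMBD2 and 723 in shNC, or 210 and 83.3 TPM, a log2FC of 1.36 (interval 1.24 to 1.49). It went from the second highest level of the 10 genes in shNC, below BCL3, to the highest in shMBD2. NFKBIB, which encodes IkB beta (chromosome 19), had 774 and 562 counts, or 61.4 and 45.8 TPM, a log2FC of 0.45 (interval 0.29 to 0.61). NFKBIE, which encodes IkB epsilon (chromosome 6), had 142 and 85 counts, or 9.72 and 5.97 TPM, a log2FC of 0.73 (interval 0.33 to 1.14). At these counts the log2FC of NFKBIE could not be told from that of NFKBIB, with a difference of 0.28 and an interval from -0.15 to 0.72. The log2FC of NFKBIA exceeded that of NFKBIB by 0.91 (interval 0.71 to 1.11) and that of NFKBIE by 0.63 (interval 0.21 to 1.05).

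The log2FC of the inhibitor NFKBIA lay between those of the precursor subunits, and by counting it could be told from NFKB2 but not from NFKB1. The log2FC of NFKBIA minus that of NFKB1 was 0.19 (interval -0.011 to 0.39), and minus that of NFKB2 it was -0.23 (interval -0.43 to -0.027). The summed level of the 3 IkB inhibitors was 281 TPM in shMBD2 and 135 TPM in shNC, 2.08-fold higher, beside 2.04-fold for the subunits. The IkB sum was therefore 1.25 times the subunit sum in shMBD2 and 1.22 times in shNC. Within the IkB sum NFKBIA was 61.7% in shNC and 74.7% in shMBD2, and NFKBIB 33.9% and 21.9%. Measured against RELA alone, NFKBIA had 1.57 times its TPM in shNC and 3.35 times in shMBD2.

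BCL3, an IkB family protein of the nucleus that binds homodimers of the NFKB1 and NFKB2 products and can act as a coactivator (chromosome 19), differed least of the 10 genes. It had 1700 counts in shMBD2 and 1449 in shNC, or 146 and 128 TPM, a log2FC of 0.22 (interval 0.12 to 0.32). In shNC it had the highest level of the 10 genes. The difference between its log2FC and that of RELA was -0.052 with an interval from -0.21 to 0.11, and it lay below that of NFKBIB by an interval from -0.42 to -0.042. The members with the smallest log2FC therefore included both a subunit and an IkB family protein.

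TNFAIP3 encodes a ubiquitin-editing enzyme that shuts off signaling from the TNF and interleukin 1 receptors upstream of IKK. It had 1571 counts in shMBD2 and 81 in shNC, or 62.0 and 3.28 TPM, a log2FC of 4.26 (interval 3.95 to 4.61). With the lowest level of the 10 genes in shNC and the fifth highest in shMBD2, it changed place more than any other of them. Its log2FC exceeded that of RELB, the next of the 10, by 1.69 (interval 1.20 to 2.19), and that of NFKBIA by 2.91 (interval 2.56 to 3.27). NFKBIA had 25.4 times the TPM of TNFAIP3 in shNC and 3.39 times in shMBD2. The tables place TNFAIP3 on the plus strand of chromosome 6 from 138188351 to 138204449. RP11-356I2.4, an RNA gene on the opposite strand, overlaps 1020 bases of it and had 14 counts in shMBD2 and 0 in shNC, and the sources used here do not state whether the counting used strand. If it did not, reads of the overlap cannot be told apart. SIRT2 overlaps 163 bases of NFKBIB on the opposite strand and had 394 and 382 counts. The other 3 genes that overlap a member, in NFKB1 and REL, had no counts, and 6 members overlap no gene of the tables.

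By log2FC the 10 genes spread over the upper part of all tested genes. Ranked from the highest of 17545 genes, TNFAIP3 was at 49, RELB at 161, NFKB2 at 434, NFKBIA at 574 and NFKB1 at 751. NFKBIE was at 1539, NFKBIB at 2458, REL at 3379, RELA at 3824 and BCL3 at 4500. Among the 10917 better counted genes TNFAIP3 was at 12, RELB at 28, NFKB2 at 73, NFKBIA at 101 and NFKB1 at 139, and BCL3 at 2099. An interval above 0 was found for all 10, but also for 19.7% of all tested genes and for 25.4% of the better counted ones, so that at this depth an interval above 0 is common. A likeness of pattern between genes cannot be measured over 2 libraries.

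**Figure D4:**
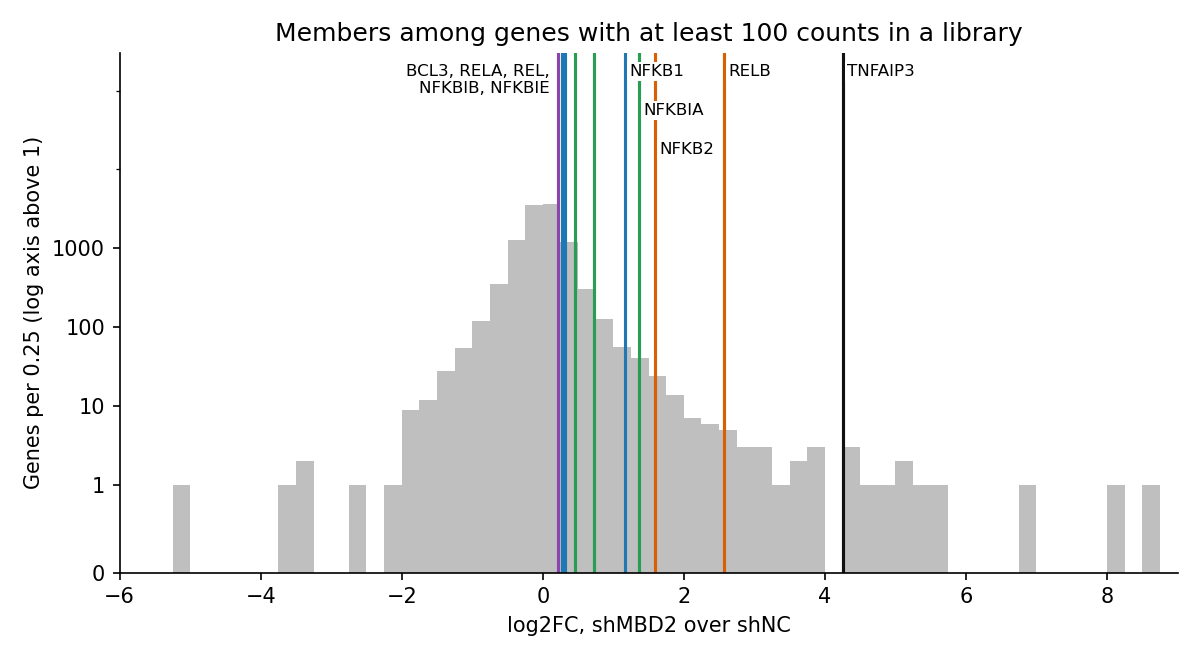
Number of genes per 0.25 of log2FC (log axis above 1) among the 10917 better counted genes (100 counts or more in the higher library), with the 10 genes as vertical lines colored by role as in the plot of log2FC by role. BCL3, RELA and REL stand within the bulk of genes at 0.22 to 0.32, while RELB at 2.57 and TNFAIP3 at 4.26 stand in its upper tail; values of genes at 0 counts in a library rest on the prior of 0.5 counts.

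The rest of the pathway was described with a list of 78 genes by role, of which 74 had at least 10 counts. Of the 74, 15 had a log2FC above 1, 1 below -1 and 58 in between, with a median of 0.19. The share above 1 was 20.3%, beside 5.48% of all tested genes. Restricted to the 56 with at least 100 counts in the higher library, 6 had a log2FC above 1 and 0 below -1, or 10.7% beside 1.62%. The 6 were IRAK2, BIRC3, ZC3H12A, NFKBIZ, IKBKE and TNIP1. By role they were 2 of 16 better counted adaptors and ligases, 1 of 11 kinases, 1 of 2 other IkB family genes and 2 of 11 other negative regulators. The list was also chosen with results of these libraries known.

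The IKK kinase and the machinery around it lay mostly near 0, with IKBKE past the 2-fold line and MAP3K8 close to it. Of 11 kinases and adaptors of kinases, 1 had a log2FC above 1 and 0 below -1. The 3 subunits of IKK, named here for their role, were CHUK with 921 counts in shMBD2 and 853 in shNC (log2FC 0.10), IKBKB with 799 and 970 (log2FC -0.29) and IKBKG with 153 and 167 (log2FC -0.13). MAP3K14, the kinase of the noncanonical pathway and likewise named for its role, had 527 and 588 counts and a log2FC of -0.17 (interval -0.34 to 0.0052). These are counts of the MAP3K14 transcript, and the protein and activity of this kinase were not measured. IKBKE, an IKK-related kinase, had 391 and 143 counts, a log2FC of 1.44 (interval 1.16 to 1.73). MAP3K8, a kinase that is held in a complex with the NFKB1 precursor, lay just inside the line with 1032 and 524 counts and a log2FC of 0.97, and was singled out after its value was seen. TAB2, an adaptor of the kinase MAP3K7, had the highest TPM of the kinase group in shNC and a log2FC of 0.28. Of the 3 genes of the linear ubiquitin ligase and the 4 of the ligase that degrades IkB, none lay past 1 or -1, with RBCK1 at 0.062 and CUL1 at 0.11.

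Among adaptors and ligases near the receptors, 2 of the 16 better counted genes lay above 1 and 0 below -1. IRAK2, a kinase-like adaptor of interleukin 1 and Toll-like receptors, had 880 counts in shMBD2 and 111 in shNC, or 44.2 and 5.72 TPM, a log2FC of 2.97 (interval 2.69 to 3.28). BIRC3, a ubiquitin ligase that with TRAF3 keeps MAP3K14 low, had 2274 and 704 counts, or 76.5 and 24.3 TPM, a log2FC of 1.68 (interval 1.56 to 1.81). IRAK1, the member of this group with the highest TPM in shNC, had 2658 and 2367 counts and a log2FC of 0.16.

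The other negative regulators and IkB family genes of the list also differed among themselves. TNIP1, a ubiquitin-binding partner of TNFAIP3, had 3270 counts in shMBD2 and 1250 in shNC, or 175 and 68.6 TPM, a log2FC of 1.38 (interval 1.28 to 1.47). ZC3H12A, a ribonuclease that degrades inflammatory mRNAs, had 968 and 309 counts, a log2FC of 1.64 (interval 1.45 to 1.83). NFKBIZ, a nuclear IkB family protein like BCL3, had 544 and 192 counts, a log2FC of 1.49 (interval 1.25 to 1.74). CYLD and OTULIN (FAM105B in the tables), deubiquitinases that also restrain the pathway and are named here for that role, had log2FC of 0.25 and -0.082, and TAX1BP1, another partner of TNFAIP3, had the highest TPM of the group in shNC and -0.15. In all, 3 of 13 tested negative regulators beside the members lay above 1, the third being TNIP3 with 30 and 8 counts, which fell outside the rule for named genes.

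The signals that feed the pathway were low in both libraries, and several of them were higher in shMBD2. TNF had 27 counts in shMBD2 and 0 in shNC, at least 8.94-fold higher against a floor of 3 counts in shNC, a bound that takes the 27 counts as exact. With the counting error of both libraries the interval of its fold began at 6.79 and had no upper end. IL1A had 40 and 7 counts and IL1B 24 and 1, the latter with a log2FC of 4.02 and an interval from 1.96 to 9.94. Of the ligands of the noncanonical pathway, LTB had 73 and 4 counts and TNFSF14 had 74 and 9, with log2FC of 4.02 (interval 2.76 to 6.09) and 2.96 (interval 2.03 to 4.22). TNFSF12, the one with the highest TPM in shNC, had 33 and 37 counts, and TNFSF11 and CD40LG had none. LTA, listed with the signals of the canonical pathway, had 0 counts in both libraries. The names of TNF, IL1B, LTA, LTB and TNFSF14 were added with their values in view, as were those of TLR2, TNFRSF1B and IL1R1 that follow. Of 13 receptors 2 lay above 1, TLR2 with 13 and 1 counts and TNFRSF1B with 18 and 1. IL1R1, the receptor of interleukin 1, had 874 and 1411 counts and a log2FC of -0.70 (interval -0.82 to -0.58). The most abundant receptors lay near 0, with TNFRSF1A at 405 TPM in shMBD2 and 442 TPM in shNC and LTBR, the receptor of LTB and TNFSF14, at 139 and 144 TPM. The single gene of the list below -1 was TNFRSF13C, a receptor of the noncanonical pathway, with 2 and 9 counts and an interval from -5.43 to 0.094 that includes 0. The coactivators EP300 and CREBBP, named for their role, had log2FC of -0.068 and 0.010. IKBIP, listed with them as a partner and not as a coactivator, had the highest TPM of that group in shNC and a log2FC of 0.31.

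**Figure D5:**
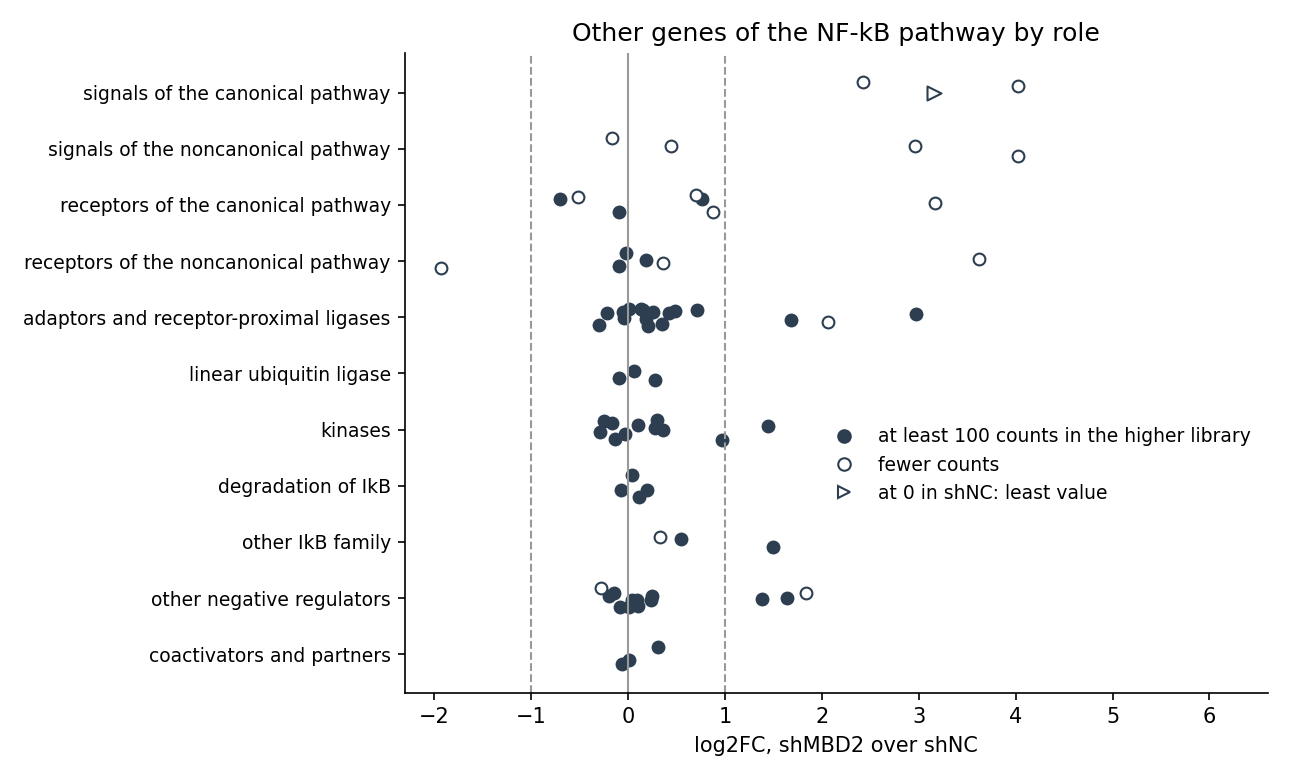
log2FC of the 74 tested genes of the pathway list by role, with filled points for genes with at least 100 counts in the higher library, open points for fewer counts and a triangle for the least value of TNF, which had 0 counts in shNC. Most points lie between the dashed lines at -1 and 1, and the 6 filled points past 1 are among the adaptors, kinases, IkB family and negative regulators.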

How the data were processed

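RNA-seq libraries of TFK1 cells carrying shMBD2 or shNC were analyzed, with 1 library per group. The submitters' processing notes name fastp, HISAT2 2.1.0, featureCounts, DESeq 1.18.1 and the build GRCh38.p13, without saying which step each was used for, while the gene positions in the tables differ from GRCh38. The authors deposited whole-number read counts per gene that were not normalized, and TPM values, a level per gene length, in another table. The strandedness of counting is not given in the sources used here. Of 63677 rows with an Ensembl identifier, 1 was kept per symbol and value, which left 56638 genes and a TPM sum of 1000000 in each library. OTULIN was matched by its Ensembl identifier.

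Counts were scaled with TMM factors (edgeR 4.0.16, R 4.3.3), and log2FC was computed after adding 0.5 counts, for genes with at least 10 counts over both libraries. Intervals came from scipy 1.17.1, with the exact conditional interval of the odds ratio for a difference between 2 genes, of which 21 pairs were compared. They cover counting error only. They also treat reads as independent molecules, which reads without molecular identifiers need not be, so they may be too narrow. A gene at 0 counts in shNC was set at 3 counts for a least fold. The script was tested on simulated counts. Of the pathway list, genes past 1 or -1 with at least 100 counts in the higher library and the gene with the highest TPM in shNC of each role were to be named. Promoter windows came from RefSeq (GRCh38.p14) and were matched by symbol. The members, lists and rules were chosen with earlier results of these data known. Alternatives were DESeq2 1.42.0 size factors, total counts, upper-quartile factors, prior counts of 0.1 and 2, log2 of TPM plus 0.1 or 1, and other filters on low counts. Other experiments of the study were not analyzed here. The result of 1 gene of the pathway list was left out of the text.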

Additional observations from a re-analysis of the deposited data

How the results depend on the processing

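All 10 genes stayed higher in shMBD2, and the same 5 lay above 1, under each of the 8 alternatives computed for them, of which keeping all deposited rows for the library sizes was added after seeing the data. With log2 of TPM plus 1, where a pseudocount pulls genes with low TPM towards 0, the log2FC of TNFAIP3 was 3.88, the share of tested genes was 2.13% above 1 and 1.94% below -1, and 0 pathway genes lay below -1. Pathway genes above 1 numbered 11 with log2 of TPM plus 1 and 15 in the main setting. With at least 1 count the shares were 16.6% and 15.8%. With a minimum sum of 100 counts they were 1.78% and 1.06%, and 6 pathway genes lay above 1 and 0 below -1. In all, 188 of 198 alternative values stayed within their interval or, for counts, moved by no more than 1.5 times. This number overstates how firm the results are. The median of a role was judged by the span from the lowest to the highest interval end of its genes. Differences between subunits hardly depend on scaling, so the other size factors could not move them. No paired analysis was possible because each group has 1 library, and leaving out a library was not possible for the same reason. The variation between cultures was not measured, and at this depth NFKBIE (142 and 85 counts) could not be placed on either side of a log2FC of 1 by counting alone.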
